A study of Homo sapiens with 4 samples.

Results

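MAP kinase cascade genes were taken here as the genes whose symbol starts with MAPK, MAP2K, MAP3K or MAP4K in the gene column of the deposited enhancer tables. The rule found 46 genes with 150 regions, of 13171 genes and 45672 regions in all 4 tables. Of the 46 genes, 33 code for kinases of the MAP4K, MAP3K, MAP2K or MAPK tiers, and 13 are kinase substrates, scaffolds, antisense or divergent transcripts, a pseudogene and other genes that share the letters. The study profiled H3K27ac, an acetyl mark on histone H3 found at active enhancers and promoters, by CUT&Tag, where an antibody brings a transposase that cuts out the marked DNA. The cells were Kasumi-1, a human line from acute myeloid leukaemia with the t(8;21) RUNX1-RUNX1T1 fusion, which both groups share. The sgSETD8 group (2 samples) received CRISPR/Cas9 with a guide against SETD8, the H4K20 monomethyltransferase whose gene symbol is KMT5A, and the sgNT group (2 samples) received a non-targeting guide.

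In a MAP kinase cascade a MAP4K or a small GTPase such as RAS activates a MAP3K, the MAP3K phosphorylates a MAP2K, and the MAP2K phosphorylates a MAPK. The ERK branch carries growth factor signals, while the p38 and JNK branches answer stress and cytokines. In t(8;21) leukaemia, mutations of KIT or RAS genes that feed the ERK branch are frequent.

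The 4 tables form 2 pairs by the names in their region identifiers. The dense pair has many, long regions (18061 in sgSETD8 and 15149 in sgNT), and the sparse pair has few, short ones (7276 in sgSETD8 and 5186 in sgNT). Which sample of a group a table came from was not resolved, and the labels do not say whether separate cultures were used. The sparse sgNT table was put in its group because its identifiers name no SETD8 guide. A region is a run of peaks that the authors stitched together, and it is named for the gene with the nearest transcription start site, so a long region does not show acetylation at each of its bases. The tables hold no counts, so depth is unknown. With 2 tables a group an exact permutation test cannot reach a two-sided p below 0.333, so p-values are left out and the 2 pairs show the spread. In the dense pair, 8 of 10 t(8;21) myeloid blast markers had a region in sgSETD8, against 7 in sgNT, with 4 of 6 B cell markers in sgSETD8 and 3 in sgNT, 4 of 6 T cell markers in each group, and 1 of 5 epithelial markers in sgSETD8 and 0 in sgNT. Their part in the results was not tested. H3K27ac does not show whether SETD8 protein was lost.

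MAP kinase genes had more regions in sgSETD8 in the dense pair and fewer in the sparse pair, and the dense direction held for neither peaks nor the best-ranked regions. The dense tables held 66 regions of these genes in sgSETD8, against 50 in sgNT. The sparse tables held 14 in sgSETD8, against 20 in sgNT. The mean log2 ratio of sgSETD8 to sgNT was -0.06 ± 0.65 (SD, n = 2 pairs), so the pairs differed in sign and the difference was smaller than their spread. Among the best-ranked 5000 regions of each dense table, 23 were MAP kinase regions in sgSETD8, against 26 in sgNT. Over all genes the ratio of region numbers was 0.37 ± 0.17, positive in both pairs. Covered length was lower in sgSETD8 in both pairs. MAP kinase regions covered 932 kb in dense sgSETD8, against 1020 kb in dense sgNT, while all dense regions covered 153 Mb in sgSETD8, against 133 Mb in sgNT. Sparse MAP kinase regions covered 13.1 kb in sgSETD8, against 19.1 kb in sgNT, while all sparse regions covered 6.89 Mb in sgSETD8, against 7.75 Mb in sgNT. Single regions weighed heavily there: 1 MAP3K7 region held 7.28 kb in sgSETD8 and 1 MAPKAPK3 region 7.45 kb in sgNT. The mean log2 ratio of covered length was -0.34 ± 0.29, against 0.02 ± 0.26 over all regions. The dense difference did not hold without MAPKAP1, where the regions covered 865 kb in sgSETD8, against 858 kb in sgNT. Without MAP3K2 alone it stayed lower in sgSETD8, at 932 kb, against 966 kb in sgNT. Without both genes dense length was higher in sgSETD8, 865 kb against 803 kb in sgNT. With the kinase genes of the 4 tiers alone, dense length stayed lower, 703 kb in sgSETD8 against 754 kb in sgNT. Sparse length was higher there, 11.0 kb in sgSETD8 against 7.13 kb in sgNT, with the 7.28 kb MAP3K7 region counted. The mean over the pairs thus turned to 0.26 ± 0.51. The dense MAP kinase regions held 268 peaks in sgSETD8, against 285 in sgNT, and among 44 genes with a dense region 20 (45.5%) had more peaks in sgSETD8, 15 (34.1%) fewer and 9 the same number. Over all genes with a dense region 49.1% had more peaks in sgSETD8 and 30.3% fewer.

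**Figure D1:**
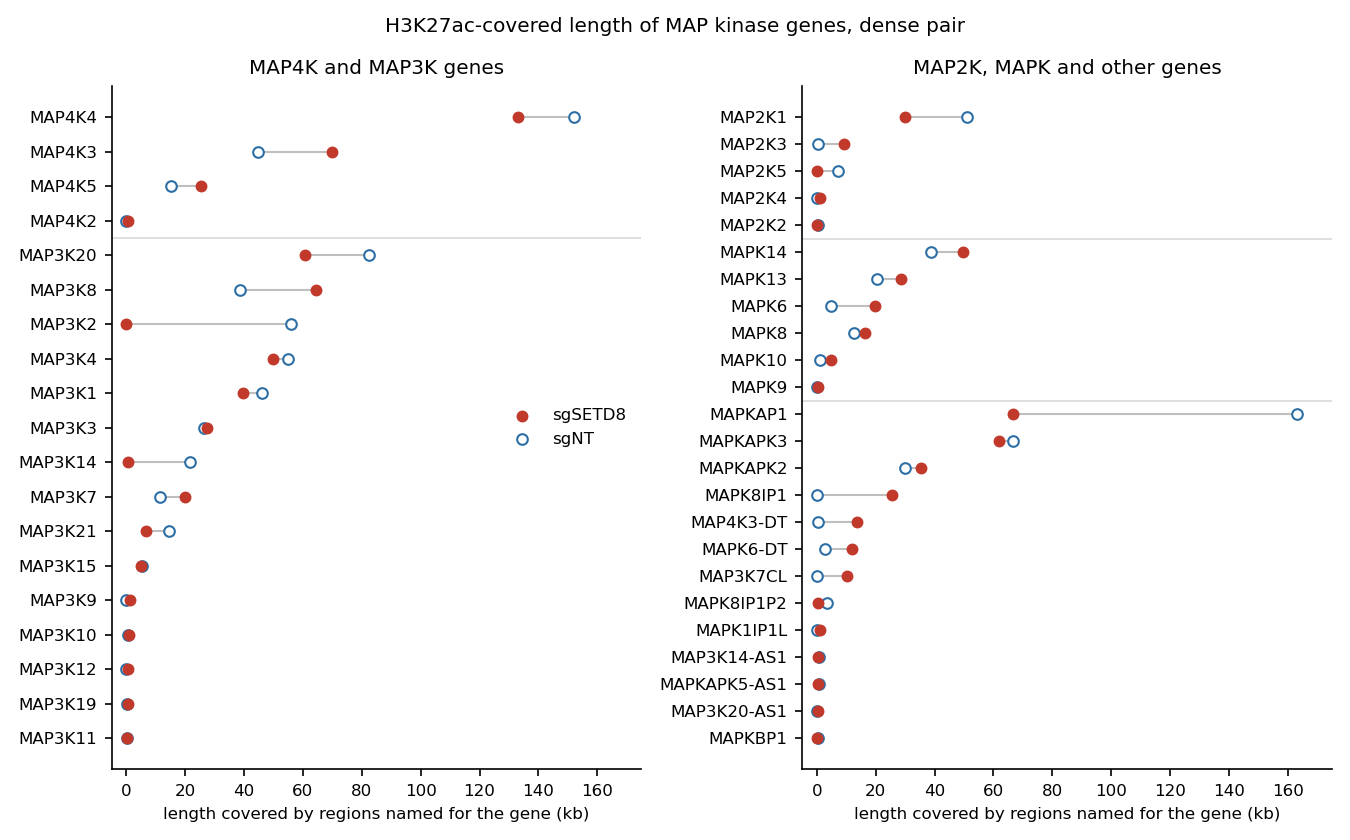
Length in kb covered by the regions named for 43 of the 44 MAP kinase genes with a dense region, in the sgSETD8 table (filled red) and the sgNT table (open blue), ordered by tier and then by length, with grey lines joining the values of a gene. MAPKAP1 has the widest gap, 66.8 kb in sgSETD8 against 163 kb in sgNT, and MAP3K2 sits at 0 in sgSETD8 because the region over it is named for another gene there.

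The start sites of these genes were looked at next. The reference held 77 upstream windows of 250 bases for 57 of the 79 matching symbols, several genes having more than 1 start. Of the 77 windows, 14 (18.2%, exact binomial 95% interval 10.3% to 28.6%) lay wholly inside a dense region in sgSETD8 and 14 in sgNT. Some of these windows overlap or share a region, as at MAP3K8, and the interval takes each as independent, so it is too narrow. Over the 35116 windows of all genes the shares were 8.98% in sgSETD8 and 7.68% in sgNT. Among the sparse regions, 0 of 77 windows lay inside a region in either group, against 0.114% of all windows in sgSETD8 and 0.253% in sgNT. The 2 groups shared 9 of the dense windows, at 7 genes, among them MAP4K4, MAP4K3 and MAPKAPK3. A further 5 windows, at MAP3K8 and MAP2K3, lay in a region in sgSETD8 only, and 5 windows, among them those of MAP3K3 and MAP2K5, in sgNT only. A window inside a stitched region need not hold a peak. Few regions were annotated to promoters. Without those, 65 of 66 dense sgSETD8 regions and 50 of 50 dense sgNT regions remained.

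Windows at the outermost start of a gene are printed for 5 genes, 5′ to 3′ along the gene, with the last base next to the start. MAP3K3 and MAP4K4 are shown because they had a region in all 4 tables. MAP2K3, MAP3K8 and MAP2K5 were chosen after their values were seen, because their windows lay in a dense region of 1 group. Sequences are from RefSeq, GRCh38.p14, all on the plus strand: MAP3K3 at chr17:63622167-63622416, MAP4K4 at chr2:101697457-101697706, MAP2K3 at chr17:21284461-21284710, MAP3K8 at chr10:30433771-30434020 and MAP2K5 at chr15:67542453-67542702. Capitals mark exact matches, on either strand, to the motif letters searched: TGTGGT for RUNX, GGAAGT for ETS, TGANTCA for AP-1 and TTGCNNAA for CEBP.
MAP3K3: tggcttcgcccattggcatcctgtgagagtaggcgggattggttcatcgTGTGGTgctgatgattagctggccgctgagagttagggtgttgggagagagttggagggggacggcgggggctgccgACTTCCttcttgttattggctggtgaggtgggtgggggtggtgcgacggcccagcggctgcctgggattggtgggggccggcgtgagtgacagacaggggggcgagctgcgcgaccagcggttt
MAP4K4: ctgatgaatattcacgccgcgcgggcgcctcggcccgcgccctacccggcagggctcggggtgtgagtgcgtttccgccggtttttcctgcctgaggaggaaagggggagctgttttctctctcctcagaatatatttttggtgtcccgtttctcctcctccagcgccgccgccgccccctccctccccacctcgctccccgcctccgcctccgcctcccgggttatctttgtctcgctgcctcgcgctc
MAP2K3: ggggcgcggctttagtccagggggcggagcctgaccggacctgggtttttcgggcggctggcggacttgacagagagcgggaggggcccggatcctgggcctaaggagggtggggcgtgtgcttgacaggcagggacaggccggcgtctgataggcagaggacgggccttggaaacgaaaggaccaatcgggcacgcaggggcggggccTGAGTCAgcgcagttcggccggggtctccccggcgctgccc
MAP3K8: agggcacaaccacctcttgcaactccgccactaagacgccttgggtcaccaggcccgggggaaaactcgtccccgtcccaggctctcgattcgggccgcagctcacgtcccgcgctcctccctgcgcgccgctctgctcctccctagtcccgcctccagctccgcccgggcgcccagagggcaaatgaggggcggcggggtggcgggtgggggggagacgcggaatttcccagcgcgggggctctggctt
MAP2K5: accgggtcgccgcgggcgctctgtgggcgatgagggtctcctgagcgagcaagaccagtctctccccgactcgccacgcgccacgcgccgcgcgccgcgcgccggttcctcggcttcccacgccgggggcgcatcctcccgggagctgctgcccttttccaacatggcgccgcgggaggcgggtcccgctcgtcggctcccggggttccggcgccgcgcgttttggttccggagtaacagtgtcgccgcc
The MAP3K3 window holds a RUNX match whose first base is 201 bases before the start and an ETS match on the minus strand that begins at 124 bases before it, and the MAP2K3 window an AP-1 match that begins at 41 bases before it. The other 3 windows hold none of these letters. No match overlaps another in these windows. The RUNX letters were in 5 of 77 MAP kinase windows (6.49%) and 11.0% of all windows, the ETS letters in 12 (15.6%) and 19.5%, the AP-1 letters in 3 (3.90%) and 6.57%, and the CEBP letters in 6 (7.79%) and 9.05%. MAP kinase windows were richer in CpG than the rest, with a median of 22 CpG dinucleotides against 11. A match is a description of the letters and not of binding.

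At 4 of these starts the window lay in a region of 1 group, which is why 3 of them were chosen, and at MAP4K4 it lay in a region of both groups. The MAP3K3 region began at 63623130 in sgSETD8, past the start, and at 63621612 in sgNT, before the window. MAP2K3, a kinase that activates p38, had a 9.19 kb region over its start in sgSETD8 (chr17:21279970-21289157, 2 peaks, signal density 0.481 per bp, rank 4376), while its sgNT region was 0.464 kb long, with its centre 7.04 kb from the outermost start. MAP2K5, the activator of ERK5, had a 7.14 kb region over its start in sgNT (chr15:67539625-67546764, 2 peaks, density 1.01, rank 3110) and none at that place in sgSETD8. Where the 2 peaks of each of these regions lie is not shown, so a peak at the start itself is not established. At MAP3K8 the sgSETD8 region over the start, 43.1 kb with 9 peaks, spans a stretch that sgNT splits into regions of 11.2 and 17.1 kb with 4 peaks each. The signal density is the authors' value per bp, its scaling is not given in the sources used here, and ranks are by total signal within a table.

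Among the MAP4K genes, which act at the top of the stress cascades, 4 of 5 had a region, and MAP4K4 had the best-ranked region of any MAP kinase gene in both dense tables. MAP4K4, a kinase upstream of JNK, had 132 kb with 37 peaks in sgSETD8 (chr2:101691652-101823598, density 0.658, rank 79), against 152 kb with 43 peaks in sgNT (chr2:101692021-101843543, density 0.787, rank 65). Both regions start before the gene and run through its introns, and the sgNT one reaches farther towards the 3′ end. Each sparse table had 2 short MAP4K4 regions, all at different places: 0.711 kb in sgSETD8, 1 of them before the gene, and 0.780 kb in sgNT, both intronic.

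MAP4K3, a kinase linked to amino acid sensing through mTORC1, covered 70.0 kb with 18 peaks in sgSETD8, against 44.8 kb with 16 peaks in sgNT. Its main sgSETD8 region was 68.9 kb (chr2:39369331-39438220, 17 peaks, density 0.506, rank 414). In sgNT the same stretch held regions of 38.4 kb (13 peaks, density 1.05, rank 431) and 5.38 kb (2 peaks), so the wider region had the lower density. The divergent transcript MAP4K3-DT covered 13.5 kb in sgSETD8, against 0.330 kb in sgNT. MAP4K5 covered 25.5 kb in sgSETD8, against 15.2 kb in sgNT, with 5 and 4 peaks. MAP4K2 had 1 region of 0.574 kb in dense sgSETD8 and none in the other tables. MAP4K1, the haematopoietic member of the tier, had no region in the tables used here.

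The MAP3K tier covered less in sgSETD8 in the dense pair, 278 kb in 23 regions against 359 kb in 17 regions in sgNT. Of its 18 genes, 16 had a region. Among sparse regions 3 MAP3K genes had a region in sgSETD8, against 9 in sgNT. Some 55.9 kb of the dense gap came from naming. MAP3K2, an activator of the ERK5 and JNK branches, had a 55.9 kb region in sgNT (chr2:127346720-127402614, 13 peaks, density 0.489, rank 743) and none under its name in sgSETD8. The whole of that stretch was covered in sgSETD8 by a 68.6 kb region named for its neighbour PROC (14 peaks, density 0.387, rank 619).

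MAP3K3, which activates the ERK5 and p38 branches, had a region of nearly the same length in both dense tables and the lower density in sgSETD8. The region was 27.3 kb in sgSETD8 (7 peaks, density 0.637, rank 1110), against 26.5 kb in sgNT (8 peaks, density 1.17, rank 630). Each sparse table had 1 intronic MAP3K3 region, 0.301 kb at density 1.35 in sgSETD8 and 0.810 kb at density 2.68 in sgNT, at places that do not overlap. Densities of the 2 pairs are on separate scales and are set side by side within a pair only. MAP3K1, an activator of JNK and ERK, covered 39.7 kb with 16 peaks in sgSETD8 (chr5:56819290-56859021, density 0.657, rank 644), against 46.2 kb with 17 peaks in sgNT (chr5:56811986-56858144, density 1.06, rank 328). Like MAP3K3 it stood about as wide in both tables with a lower density and a later rank in sgSETD8.

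MAP3K8, also known as TPL2, which links toll-like receptor and TNF signals to ERK, moved the other way in length. It covered 64.4 kb with 16 peaks in sgSETD8, against 38.7 kb with 12 peaks in sgNT. Its best sgSETD8 region (chr10:30417100-30460200, density 0.499) had rank 834, and its best sgNT region had rank 3028. The sparse pair had 1 MAP3K8 region, of 0.469 kb, in sgNT. MAP3K20, the stress kinase ZAK that responds to stalled ribosomes, covered 60.7 kb in 4 regions with 17 peaks in sgSETD8 (best rank 712), against 82.4 kb in 1 region with 15 peaks in sgNT (rank 446). The main regions of both groups start at the same base, chr2:173077894. MAP3K14, the NF-kappaB-inducing kinase NIK, had 0.586 kb in sgSETD8 (1 peak, rank 15742), against 21.6 kb in sgNT (4 peaks, rank 2727), the short region lying inside the long one.

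MAP3K7, the kinase TAK1 that takes signals from TNF, interleukin 1 and toll-like receptors, had regions in all 4 tables. Dense coverage was 19.9 kb in 3 regions in sgSETD8, against 11.6 kb in 2 regions in sgNT, and the region near its start had a density of 0.839 in sgSETD8, against 1.02 in sgNT. The 2 sparse sgSETD8 regions, 7.28 and 0.274 kb, met no region of the sparse sgNT table, nor did its 0.440 kb region meet one of the sparse sgSETD8 table. MAP3K19 also had a region in all 4 tables, each under 0.5 kb and with 1 peak. The 4 regions lay within 1616 bp of one intron (chr2:134975096-134976711), where the 2 dense regions overlap each other and the 2 sparse ones do not. MAP3K4, an activator of p38 and JNK, covered 49.8 kb in sgSETD8, against 55.1 kb in sgNT, with 14 and 11 peaks. MAP3K21 covered 6.79 kb in sgSETD8, against 14.6 kb in sgNT. The regions of MAP3K9, MAP3K10, MAP3K11, MAP3K12, MAP3K13 and MAP3K15 covered at most 5.31 kb of a gene in any table, and those named for MAP3K15 lay in an intron of its neighbour SH3KBP1.

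MAP3K5, the stress kinase ASK1, had no region under its name although long regions cover its gene body. In the dense pair 4 sgSETD8 regions with 27 peaks covered 95.1 kb of the body (best rank 226), against 6 sgNT regions with 26 peaks that covered 82.3 kb (best rank 216). All of them were named for neighbouring loci. Of the 10 kinase genes of the 4 tiers with no region under their name, MAP3K5 was the one whose body met a dense region. The body of MAP2K6 met a sparse sgSETD8 region of 0.274 kb. The bodies of MAP4K1, MAP3K6, MAP2K7, MAPK3, MAPK4, MAPK7, MAPK11 and MAPK12 met no region in the tables used here.

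**Figure D2:**
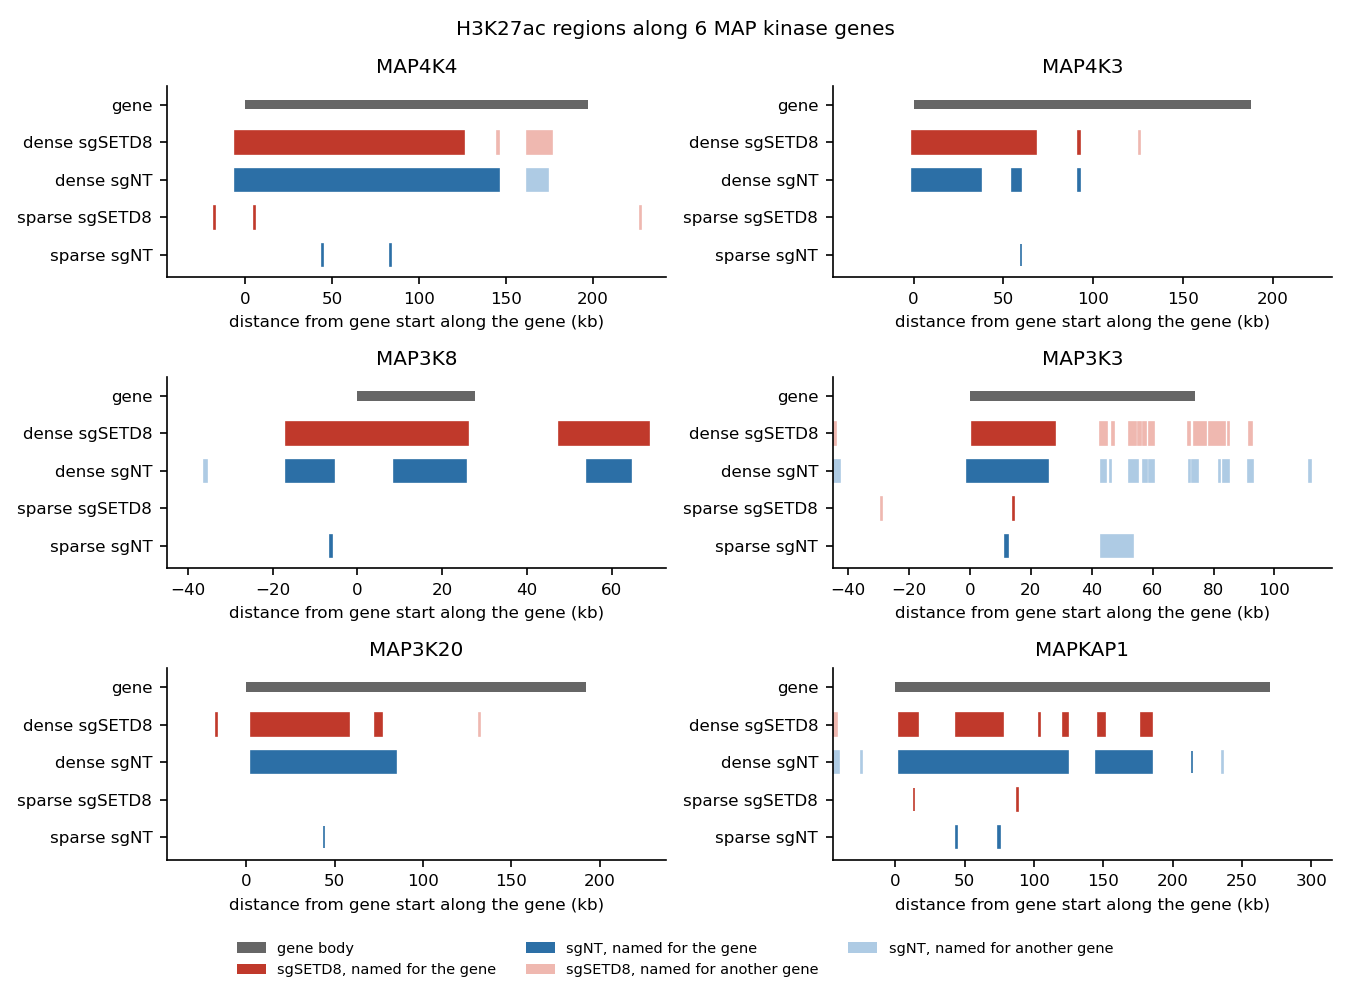
Regions along 6 genes in the 4 tables, as distance in kb from the gene's outermost start along its strand (MAP4K4, MAP4K3, MAP3K8, MAP3K3, MAP3K20 and MAPKAP1). Dark bars are regions named for the gene, pale bars regions named for another gene and the grey bar the gene body. At MAPKAP1 the sgSETD8 row shows 6 separate regions where the sgNT row shows a long run, and at MAP3K8 the sgSETD8 row is continuous over the start where the sgNT row is split.

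The MAP2K tier had few regions, 4 in each dense table and 0 in each sparse one. MAP2K1, the ERK activator MEK1, held most of its length. It covered 30.1 kb with 7 peaks in sgSETD8 (chr15:66403886-66433938, density 0.623, rank 988), against 50.9 kb with 12 peaks in sgNT (chr15:66390444-66441358, density 0.590, rank 653). The sgSETD8 region lay wholly inside the sgNT one. MAP2K2, the second ERK activator, had a single 0.476 kb intronic region in sgNT and none in sgSETD8. MAP2K4, which activates JNK, had 2 intronic regions of 0.347 and 0.715 kb in sgSETD8 and none in sgNT. With MAP2K3 and MAP2K5, described above, 2 of the 5 MAP2K genes had dense regions in both groups.

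The MAPK tier, the terminal kinases, covered 157 kb in sgSETD8, against 124 kb in sgNT, with 13 dense regions and 47 peaks in each. ERK1, whose gene is MAPK3, had no region in the tables used here.

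The p38 and JNK kinases with a dense region covered more in sgSETD8, as all dense regions together did, and MAPK11 and MAPK12, also p38 kinases, had no region. MAPK14, p38 alpha, covered 49.6 kb in sgSETD8 (chr6:36027592-36077204, density 0.553, rank 588), against 38.8 kb in sgNT (chr6:36030156-36068933, density 0.732, rank 708), with 12 peaks in each. MAPK13, p38 delta, covered 28.5 kb in sgSETD8, against 20.6 kb in sgNT, and part of its regions in both groups lay inside the neighbouring gene MAPK14. MAPK8, the kinase JNK1, covered 16.5 kb in sgSETD8, against 12.6 kb in sgNT, with 5 peaks in each. MAPK10, the neuronal kinase JNK3, covered 4.86 kb in sgSETD8, against 1.06 kb in sgNT, the added length being mostly 1 region of 3.73 kb inside the gene body. MAPK6, the atypical kinase ERK3, covered 19.8 kb with 4 peaks in sgSETD8 (density 0.417, rank 2553), against 4.73 kb in 2 regions with 3 peaks in sgNT. Its density was 0.885 and 1.28 in those sgNT regions.

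MAPK9, the kinase JNK2, was the one MAP kinase gene found in both sgSETD8 tables and neither sgNT table. That is 1 of 46 genes (2.17%), where 2.85% of all genes had that pattern. Its regions were 0.494 kb (chr5:180284309-180284802, dense, rank 16055) and 0.443 kb (chr5:180251912-180252354, sparse, rank 2522), with 1 peak each, and they did not overlap. The reverse pattern, both sgNT tables and neither sgSETD8 table, was found at 0 of 46 genes, against 0.858% of all genes. A region in all 4 tables was found at 7 of 46 genes (15.2%, interval 6.34% to 28.9%), among them MAP4K4, MAP3K3, MAP3K7, MAP3K19, MAPKAP1 and MAPKAPK3, against 12.1% of all genes. These shares stand near those of all genes.

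Among the substrates, scaffolds and other genes, MAPKAP1 and MAPKAPK3 had regions in all 4 tables. MAPKAP1 codes for SIN1, a subunit of the mTORC2 complex and no kinase, and it had the largest difference in covered length of any MAP kinase gene. It covered 66.8 kb in 6 regions with 19 peaks in sgSETD8, against 163 kb in 3 regions with 33 peaks in sgNT, a log2 ratio of -1.29. The longest sgNT region was 122 kb with 26 peaks (chr9:125582505-125704840, density 0.520, rank 201). Inside it sgSETD8 had 4 regions of 4.00, 0.889, 34.3 and 14.2 kb, the 34.3 kb one with 9 peaks (chr9:125629187-125663485, density 0.483, rank 1179). The sparse tables gave MAPKAP1 regions of 0.274 and 0.297 kb in sgSETD8, against 1.65 and 0.653 kb in sgNT, at other places. The sgNT ones had densities of 3.12 and 4.64 and ranks 600 and 997, and the sgSETD8 ones densities of 0.563 and 0.999 and ranks 6778 and 3695.

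MAPKAPK3, a kinase activated by p38, covered 62.0 kb with 12 peaks in sgSETD8 (chr3:50587632-50649628, density 0.731, rank 249), against 66.6 kb with 16 peaks in sgNT (chr3:50587948-50654560, density 0.805, rank 274). It was the second-best MAP kinase region in sgSETD8 and the third-best in sgNT. A stretch of 590 bp in this region (chr3:50590778-50591367) was covered in all 4 tables, and the sparse tables name it for the neighbours C3orf18 in sgSETD8 and CISH in sgNT. MAPKAPK2, the p38 substrate MK2, covered 35.4 kb with 13 peaks in sgSETD8 (rank 960), against 30.1 kb with 9 peaks in sgNT (rank 996). MAPK8IP1, a JNK scaffold, had a 25.7 kb region with 3 peaks in sgSETD8 (chr11:45855248-45880966, density 0.306, rank 2671) that lay upstream of it, in the gene CRY2, and none under its name in sgNT. Of that sgSETD8 region 15.0% was covered in sgNT, by a region with another name.

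Genes with a dense region in 1 group only were compared with all genes. Of the 44 MAP kinase genes with a dense region, 9 (20.5%) had one in sgSETD8 only, against 20.5% of all genes. Another 4 (9.09%) had one in sgNT only, against 11.4% of all genes. The 9 were MAP4K2, MAP3K9, MAP3K12, MAP2K4, MAPK9, MAPK8IP1, MAPK1IP1L, MAP3K7CL and MAP3K20-AS1, and the 4 were MAP3K2, MAP2K2, MAP2K5 and MAPKBP1. Both shares were near those of all genes.

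In the sparse pair the shares ran against those of all genes. Of 21 MAP kinase genes with a sparse region, 4 (19%, interval 5.45% to 41.9%) had one in sgSETD8 only, against 45.9% of all genes. They were MAPK9, MAPK15, MAPKAPK2 and MAP4K3-DT. Another 10 (47.6%, interval 25.7% to 70.2%) had one in sgNT only, against 28.8% of all genes, among them MAP4K3, MAP3K8, MAP3K14, MAP3K20 and MAPK13. Of the sparse MAP kinase regions 7 of 14 overlapped a dense region in sgSETD8 and 15 of 20 in sgNT, where 29.3% of all sparse regions did so in sgSETD8 and 79.0% in sgNT. Among sparse regions that overlap a dense one, 1 of 13 MAP kinase genes (7.69%) was in sgSETD8 only, against 14.5% of all such genes, and 7 (53.8%) in sgNT only, against 52.8% of all. Matched by position whatever the name, 10 of the 21 genes (47.6%) had sparse sgSETD8 regions that met no sparse sgNT region, against 58.1% of all genes, and 16 (76.2%) had sparse sgNT regions that met no sparse sgSETD8 region, against 41.0% of all. Of the 21 genes, 11 had a sparse region in sgSETD8 and 17 in sgNT. Shares over the 21, and those over all genes, thus partly restate which group has regions at all.

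Single regions were also compared by position. A region of the other group overlapped by at least 1 bp at 45 of 66 sgSETD8 regions and 42 of 50 sgNT regions. The shares with no counterpart were 31.8% in sgSETD8, against 34.0% of all sgSETD8 regions, and 16.0% in sgNT, against 22.7% of all sgNT regions. In the sparse pair 13 of 14 sgSETD8 regions (92.9%) and 19 of 20 sgNT regions (95.0%) had no counterpart, against 85.1% of all regions in sgSETD8 and 79.1% in sgNT. Over 80 fixed places, each a merged MAP kinase region of any table, and whatever gene a region was named for, 989 kb were covered in dense sgSETD8, against 1030 kb in dense sgNT.

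**Figure D3:**
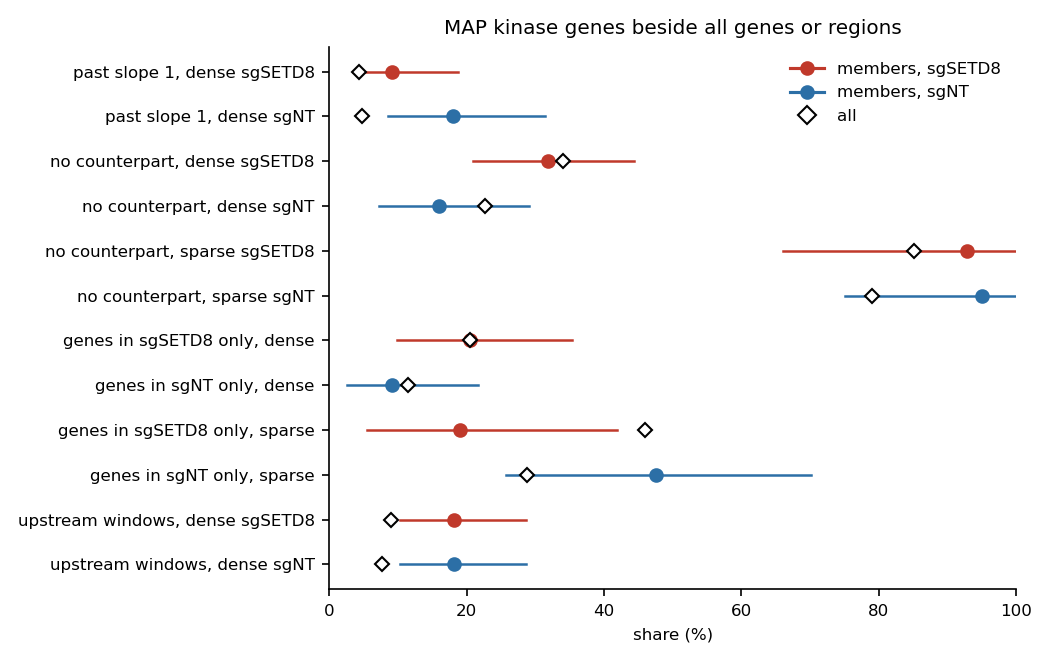
Share in percent of MAP kinase regions, genes or upstream windows with each property (circles, red for sgSETD8 and blue for sgNT, with exact binomial 95% intervals) beside the share among all regions, genes or windows (open diamonds). The dense shares of genes in 1 group only and of regions with no counterpart have the diamond inside the interval. It lies outside for dense sgNT regions past the slope-1 point, 18.0% against 4.69% of all. It also lies outside for upstream windows in both groups and for sparse genes in sgSETD8 only. Some genes hold several regions and some windows overlap, so these intervals are too narrow and are no test.

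MAP kinase regions were long, and several were among the strongest of their table. Strong regions were taken here as those beyond slope 1 on the curve of signal against rank, with both axes scaled to the same range. In the dense pair 6 of 66 sgSETD8 regions (9.09%, interval 3.41% to 18.7%) passed it, against 4.26% of all sgSETD8 regions. In sgNT 9 of 50 regions (18.0%, interval 8.58% to 31.4%) passed it, against 4.69% of all sgNT regions. Some genes hold several regions and the intervals take each as independent, so they are too narrow. The 6 in sgSETD8 belonged to MAP4K4, MAPKAPK3, MAP4K3, MAPK14, MAP3K1 and MAP3K20. The 9 in sgNT belonged to those genes and to MAPKAP1, MAP3K3 and MAP2K1. Among sparse regions 0 passed it in either group, against 2.82% of all regions in sgSETD8 and 3.05% in sgNT. The median width of dense MAP kinase regions was 4560 bp in sgSETD8 and 7180 bp in sgNT, where all regions had 1500 and 1520 bp. With the best-ranked 10% of each table as the strong set, 12 MAP kinase regions were strong in each dense table.

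Length per gene was then compared among the 31 genes with dense regions in both groups. Covered length was at least 2 times higher in sgSETD8 at 6 genes (19.4%), against 26.1% of all such genes, and at least 2 times lower at 4 genes (12.9%), against 13.2% of all. The 6 were MAP2K3, MAP3K10, MAPK10, MAPK6, MAPK6-DT and MAP4K3-DT, and the 4 were MAPKAP1, MAP3K14, MAP3K21 and MAPK8IP1P2. The median log2 ratio was 0.23, against 0.19 over 7376 genes. The single tables of a pair carry no replicate error, so these values have none.

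Signal density was compared at dense regions of sgSETD8 and sgNT with at least 90% mutual cover, after subtracting the median log2 ratio of all 1769 such regions, -0.26. Of the 5 MAP kinase regions, 1 was at least 1.5 times lower in sgSETD8, against 1.02% of all, and 0 were at least 1.5 times higher, against 1.41% of all. The lower one was the MAP3K3 region, with a centred log2 difference of -0.61, where the SD over all matched regions was 0.24. MAPKAPK3 stood at 0.13, a 1.08 kb MAP4K3 region at 0.04, a MAPK8 region at 0.02 and a MAPK10 region at -0.07, all within that SD. At 50% mutual cover 22 pairs matched, and 19 of them (86.4%) had the lower density in sgSETD8 before subtraction, against 83.0% of all 6011 pairs. After subtraction 10 were higher and 12 lower. The lowest at this cover were the main MAP4K3 region at -0.79, MAP4K5 at -0.68, MAP3K3 at -0.60 and MAP3K1 at -0.42, and the MAP4K3 and MAP4K5 regions were also the wider ones in sgSETD8.

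Most MAP kinase regions lay in introns, 77.3% in dense sgSETD8 and 78.0% in dense sgNT, against 67.5% and 68.3% of all regions of those tables. In the sparse pair 85.7% were intronic in sgSETD8, against 47.3% of all its regions, and 70.0% in sgNT, against 56.1% of all. The median distance of a dense region's centre to the start it is named for was 22 kb in sgSETD8 and 18.9 kb in sgNT, near the 21.8 and 18.8 kb of all regions. By gene bodies of the reference, 50 of 66 dense sgSETD8 regions and 41 of 50 dense sgNT regions lay in the gene they were named for.

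Other genes of the pathway were counted from 4 lists. For comparison, all dense regions numbered 18061 over 153 Mb in sgSETD8, against 15149 over 133 Mb in sgNT. At the RAS and RAF level 9 of 15 genes had a dense region in sgSETD8, against 8 in sgNT, with 16 regions over 275 kb in sgSETD8 and 14 over 284 kb in sgNT. Among 24 kinases and transcription factors that MAP kinases regulate, 43 dense regions covered 566 kb in sgSETD8, against 41 over 520 kb in sgNT. MEF2C, a transcription factor that p38 and ERK5 phosphorylate, covered 176 kb in sgSETD8 (best rank 103), against 147 kb in sgNT (best rank 343). ETV5 went the other way, with 65.8 kb in sgSETD8, against 115 kb in sgNT, and FOS, FOSL2 and JUN also covered less in sgSETD8. Of the same family FOSL1 covered 25.4 kb and JUND 0.846 kb in dense sgSETD8, and neither had a dense region in sgNT. The 17 feedback inhibitors had 41 dense regions over 371 kb in sgSETD8, against 35 over 268 kb in sgNT, and 3 sparse regions in sgSETD8, against 9 in sgNT. Of these DUSP6, the phosphatase that switches ERK off, covered 77.8 kb in dense sgSETD8, against 35.8 kb in dense sgNT, and its 2 sparse regions were in sgNT. SPRY1, an inhibitor of receptor signals to RAS, had 9 dense regions over 47.2 kb in sgSETD8, against 4 over 33.6 kb in sgNT. DUSP5 covered less in sgSETD8, 10.1 kb against 16.9 kb in sgNT, as did DUSP2, 0.746 kb against 4.88 kb.

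The 20 genes of the stress and TAK1 input list had 56 dense regions in sgSETD8, against 31 in sgNT, over almost the same length, 655 kb in sgSETD8 and 657 kb in sgNT. CDC42, a GTPase upstream of MAP3K and PAK kinases, had 13 dense regions over 14.7 kb in sgSETD8, against 1 region of 69.7 kb in sgNT. TNIK, a MAP4K-like kinase, had 10 regions over 28.5 kb in sgSETD8, against 5 over 57.5 kb in sgNT. STK3, a kinase of the Hippo pathway, had 8 regions over 13.7 kb in sgSETD8, against 2 over 1.32 kb in sgNT. As at MAPKAP1, the group with more regions of a gene was not always the group with more covered length.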

How the data were processed

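H3K27ac was measured in 4 Kasumi-1 samples, 2 with sgSETD8 and 2 with sgNT, grouped by the sample titles. CUT&Tag is named in the title of some samples only, and the other titles name H3K27ac alone. The submitters' processing notes name cutadapt, Bowtie2 and hg38. How peaks were called, stitched and annotated is not given in the sources used here. In the series design text the mark is H3K27me1, while the titles and antibody labels name H3K27ac. The authors deposited 4 tables of stitched regions with a gene name and 1 column of signal, which is region length times a density given to 4 decimals or fewer. Value columns with no group numbered 0. The tables hold no counts, so depth is unknown.

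Groups were read from the guide named in the region identifiers, except for the sparse sgNT table. Its identifiers name only the cell line, so they do not show that those cells received the non-targeting guide. Regions were selected by gene symbol, on chromosomes 1 to 22 and the sex chromosomes. Density is signal divided by width, and peaks are the number in the region identifier. Overlaps used a minimum of 1 bp, and intervals are exact binomial (Clopper-Pearson) 95% intervals that cover counting only. Gene bodies and upstream windows came from RefSeq GRCh38.p14. The interval arithmetic was tested on simulated data. The tools were Python 3.11.15 with pandas 2.3.3, numpy 2.4.6, matplotlib 3.10.9 and scipy 1.17.1.

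The members and lists were chosen with earlier results of these data known. Genes given with full values had a region in all 4 tables, or in both tables of 1 group and neither of the other, or one of the 10 best-ranked MAP kinase regions of a dense table, or 1 of the 5 largest differences in dense covered length in either direction, or a matched region. Others are named from lists or because counts or positions singled them out after their values were seen. Some genes that the rules take are not reported here.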

Additional observations from a re-analysis of the deposited data

How the results depend on the processing

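The mean log2 ratio of MAP kinase regions, -0.06 over both pairs, kept within its SD of 0.65 under each alternative run and ran from -0.51 to 0.40 with 1 pair left out. That of covered length, -0.34, ran from -0.54 to -0.13 with 1 pair left out. It turned to 0.26 with kinase genes of the 4 tiers alone, where MAPKAPK3 and MAPKAP1 are not counted. The dense pair then stood at -0.10 and the sparse pair at 0.62. It was -1.24 with sparse regions that overlap a dense one. That alternative was chosen after seeing the data, as were fixed positions and leaving out MAPKAP1, MAP3K2 or both. The count of genes in dense sgSETD8 only, 9, was 2 with the best-ranked 5000 regions and 5 with kinase genes alone. The 4 in sparse sgSETD8 only became 2 with regions of at least 500 bp, 2 with kinase genes alone, 1 with sparse regions that overlap a dense one and 10 when matched by position whatever the name. The 10 in sparse sgNT only became 6 with regions of at least 500 bp and 16 by position. Dense MAP kinase regions with no counterpart were 47.0% in sgSETD8 and 34.0% in sgNT when 50% cover was asked. They were 4.35% in sgSETD8 and 3.85% in sgNT among the best-ranked 5000. Shares over all genes are given above only for sparse regions that overlap a dense one and for matching by position. The other counts and shares of genes and of regions with no counterpart have none beside them, so they show dependence on the setting only. The median matched density difference was 0.02, and -0.25 with no subtraction. With the best-ranked 10% of a table as strong, 12 regions in dense sgSETD8, 3 in sparse sgSETD8 and 1 in sparse sgNT counted, against 6, 0 and 0 by the slope. Apart from construction (fewer regions, fewer genes, a stricter overlap), the cause of these shifts was not tested. No test was run. No paired analysis by replicate number was possible, because which sample of a group each table came from was not resolved. The pairs used are those of the identifiers. Unknown depth leaves every absence as not detected in these tables.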

Other observations

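Repeats lay at the centre of 40.9% of dense MAP kinase regions in sgSETD8 and 52.0% in sgNT, where 39.7% and 38.4% of all regions of those tables had one. In the dense pair 8 sgSETD8 regions and 10 sgNT regions of MAP kinase genes held 10 or more peaks. The share over all regions was not counted, so these numbers do not set MAP kinase genes apart.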
